A study of Homo sapiens with 6 samples.

Results

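The genes described here encode the aminoacyl-tRNA synthetases and a scaffold of the complex that holds some of them, measured in the human liver cancer line SNU-398, which was derived from a hepatocellular carcinoma. Members were chosen by gene symbol in the platform annotation, and the brightest probe set over the 6 arrays stood for each gene. That gave 36 genes of 18404 with a single symbol, made up of 19 cytosolic synthetases, 16 mitochondrial synthetases and 1 scaffold. The second scaffold gene, AIMP2, was not analysed here. Neither choice used the difference between the groups, but the gene family was taken up, and WARS1 was singled out in it, with that difference known. The change of WARS1 is therefore a description, and its p-value is not independent evidence.

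Microarrays measured RNA from 3 cultures with a short hairpin RNA (shRNA) against SALL4 and 3 cultures with a scrambled shRNA. All were cells of the same line in the same serum-containing medium, and each set of 3 is labelled as biological replicates without a statement of what was repeated. SALL4 is a zinc finger transcription factor of embryonic cells and fetal liver. The labels give a single SALL4 shRNA condition, without the number of hairpins in it, and name no rescue, so other effects of the hairpin and effects of lower SALL4 cannot be told apart.

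Each aminoacyl-tRNA synthetase joins 1 amino acid to its matching tRNAs, the step that sets the meaning of the codons. Cytosol and mitochondria mostly use separate enzymes, both encoded in the nucleus, and the gene symbols of the mitochondrial ones end in 2. Some cytosolic enzymes sit in a large multi-tRNA synthetase complex built around the AIMP scaffold proteins. In many cells the cytosolic enzymes are transcribed more when amino acids are short, through the factor ATF4, and tryptophanyl-tRNA synthetase, WARS1, is in addition a classical target of interferon gamma.

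SALL4 itself had intensities of 121, 119 and 117 in the SALL4 shRNA cultures, against 283, 264 and 335 in the scrambled cultures. The mean log2 change was -1.30 ± 0.18 (SE, n = 3 each), with a limma adjusted p of 0.0112. Array medians ranged from 47.85 to 51.69, and between 15.5% and 16.9% of the values of an array lay at the lowest deposited value, 10. The second principal component, 19.8% of the variance, set SALL4 shRNA replicate 2 and scrambled replicate 3 (-23.4 and -19.3) apart from the other 4 arrays (1.8 to 16.9). Of 13 hepatocyte and liver tumour markers measured, ALB, APOB, TTR, TF and AFP had mean log2 intensities under 5 in both groups. EPCAM (mean intensity 894 with SALL4 shRNA, 963 with scrambled) and GPC3 (144 and 155) were present, so the mature hepatocyte markers were mostly dim in this line. The summed intensity of 9 fibroblast and stellate markers was 1232 to 1576 in SALL4 shRNA arrays and 1679 to 1833 in scrambled arrays, while that of 8 blood cell markers was 240.2 to 330.1 and 236.1 to 252.6. Of the 7 fibroblast markers in the fit, DCN and ACTA2 fell and 5 did not pass, with 4 negative and 3 positive log2 changes (COL1A2, a collagen, was at 0.50). The part of these shifts in the values below was not tested.

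With the SALL4 shRNA, WARS1 was the 1 member of 36 that fell, with the lowest log2 change of all of them, and 0 rose. The other 35 genes did not pass the test. A gene passed at a limma adjusted p under 0.05 over the 13711 genes that averaged 5 or more in log2 intensity in at least 1 group. In that fit 1.6% of all genes passed, 1.06% as lower and 0.547% as higher, so 1 of 36 is a share close to the background. All 36 members entered it, and all 36 would have entered on the scrambled arrays alone. The lowest intensity of any member on any array was 38.5, well clear of the lowest deposited value.

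WARS1, the cytosolic enzyme that charges tRNA with tryptophan, had intensities of 389, 371 and 352 in the SALL4 shRNA cultures, against 761, 792 and 819 in the scrambled cultures. Its values were tightly grouped on both sides, and the groups were far apart. The mean was 371 ± 18.3 in SALL4 shRNA cultures and 791 ± 29.1 in scrambled cultures (SD, n = 3 each). That is 46.9% of the control level, or a log2 change of -1.09 ± 0.17 (SE) with a 95% interval of -1.47 to -0.71. The limma adjusted p was 0.0142. Of the 13711 genes, 39 had a smaller p and 118 had a more negative log2 change, so WARS1 was among the stronger differences of the experiment but not at its extreme. The adjusted p was 0.0511 without scrambled replicate 1, 0.058 without scrambled replicate 2, 0.0805 with no filter on dim genes, 0.0535 with all probe sets in the fit and 0.0878 without SALL4 shRNA replicate 2 and scrambled replicate 3 together. The log2 change stayed between -1.13 and -1.06 in all 15 alternative settings, and WARS1 passed in 9 of them. In RNA from whole cultures, less RNA per cell and fewer expressing cells cannot be told apart.

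WARS2, the mitochondrial enzyme for the same amino acid, did not share this difference. It had intensities of 154, 180 and 215 with the SALL4 shRNA, against 140, 173 and 188 with the scrambled shRNA, and the groups overlapped. Its log2 change was 0.13 ± 0.20 (SE, n = 3 each; limma adjusted p = 0.799), with a 95% interval of -0.31 to 0.57. Leaving out 1 array in turn gave WARS2 values from 0.0078 (without SALL4 shRNA replicate 3) to 0.248 (without SALL4 shRNA replicate 1), and 0.0082 without scrambled replicate 1 and 0.222 without scrambled replicate 3. Within an array, log2 WARS1 minus log2 WARS2 lay between 0.71 and 1.33 in SALL4 shRNA cultures and between 2.12 and 2.44 in scrambled cultures. These ranges did not overlap, and the changes of the 2 genes differed by -1.22 on the log2 scale.

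**Figure D1:**
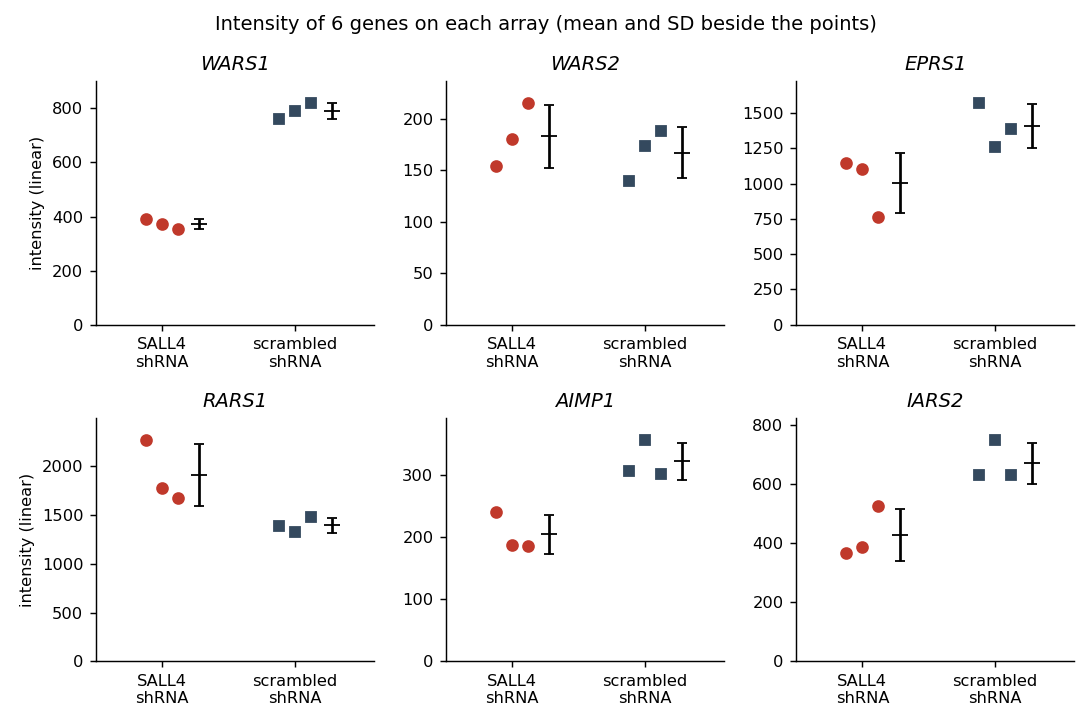
Intensity (linear, axis from 0) of 6 genes on each array, with SALL4 shRNA arrays as red circles, scrambled shRNA arrays as dark squares, and the mean and SD (n = 3) beside them. For WARS1 the SALL4 shRNA arrays lie between 352 and 389 and the scrambled arrays between 761 and 819, whereas the WARS2 groups overlap.

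The region before the WARS1 start is shown because WARS1 is the member known as an interferon target. RefSeq (GRCh38.p14) gives WARS1 2 start positions 980 bases apart on the minus strand of chromosome 14. The 250 bases before each are printed 5′ to 3′ on the gene's strand, upstream start first. Capitals mark matches on either strand to the core of an interferon-stimulated response element (GAAA, 2 free bases, GAAA), TTCNNNGAA (a gamma-activated site) and CCGGAAG (an ETS factor motif).
WARS1 upstream start, chr14:100376328-100376577: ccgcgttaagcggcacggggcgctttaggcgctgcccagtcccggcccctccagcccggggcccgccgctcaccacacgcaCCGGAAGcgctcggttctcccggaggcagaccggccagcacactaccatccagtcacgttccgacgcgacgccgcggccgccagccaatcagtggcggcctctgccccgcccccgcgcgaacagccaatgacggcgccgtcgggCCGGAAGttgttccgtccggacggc
WARS1 downstream start, chr14:100375348-100375597: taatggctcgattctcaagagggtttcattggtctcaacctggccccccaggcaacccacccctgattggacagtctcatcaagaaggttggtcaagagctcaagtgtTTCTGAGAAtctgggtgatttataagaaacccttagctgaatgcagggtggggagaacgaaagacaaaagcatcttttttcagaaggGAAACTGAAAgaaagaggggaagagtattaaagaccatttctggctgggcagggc

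The downstream window holds 1 match to the interferon-stimulated element core and 1 to the gamma-activated site, and the upstream window holds neither but has 2 ETS matches. RefSeq windows of 300 bases (250 before to 50 after a start) were given for 31 of the 36 members and not for AARS2, LARS1, VARS1, VARS2 and YARS1. The interferon-stimulated element core was found for 2 of the 31, WARS1 and EARS2, the mitochondrial glutamyl enzyme, whose log2 change was -0.10 ± 0.21 (SE). It occurs in windows of 4.38% of all 27305 genes and in 3.57% of all windows. TTCNNNGAA was found for 5 of 31 (WARS1, TARS1, WARS2, CARS1 and PARS2) and for 9.38% of all genes (7.66% of all windows). CCGGAAG was found for 16 of 31 and for 12.2% of all genes (10.3% of all windows). These are letter matches, not measured binding, and genes with several starts have more bases searched.

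Interferon response genes had changes of both signs. Of 36 such genes measured, 24 entered the fit, where 1 fell, 0 rose and 23 did not pass (1.6% of all genes passed). There were 10 negative and 14 positive log2 changes, with a median of 0.08. In limma 6 of the 24 had an unadjusted p under 0.05, 3 lower and 3 higher, beside 16.9% of all genes. IFIT3, an antiviral tetratricopeptide protein, fell to intensities of 15.7, 14.4 and 18.4 with the SALL4 shRNA, against 41.5, 36.6 and 46.9 with the scrambled shRNA. The log2 change of IFIT3 was -1.37 ± 0.19 (SE, n = 3 each; limma adjusted p = 0.0112). It entered the fit through the scrambled group alone, where it is high, and a filter on the mean of all 6 arrays left it out of the fit. With the filter by group, IFIT3 passed in every fit that left out a single array. It entered each of those fits through the scrambled group too, so they do not bear on how the filter let it in. With no filter IFIT3 did not pass. IRF1, the factor that mediates much of the interferon gamma response, had 28.9, 30.1 and 53.8 against 28.4, 16 and 10, and did not pass (limma adjusted p = 0.123). IRF1 entered the fit through the SALL4 shRNA group alone, and 1 scrambled array was at 10, the lowest deposited value, so its values give no firm size of a change. IFIT5 (-0.65 ± 0.20) and IFIT1 (-0.59 ± 0.24) did not pass either, and IFIT5 too entered the fit through the scrambled group alone. TAP1 (0.56) and IFI35 (0.52), higher at an unadjusted p under 0.05 in limma, also did not pass.

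Genes of tryptophan uptake and breakdown gave 0 calls in limma among the 11 of 20 measured that entered the fit. An unadjusted p under 0.05 was reached by 1 of the 11. Over all genes 1.6% passed and 16.9% had an unadjusted p under 0.05. The log2 changes of the 11 genes lay between -0.46 and 0.23. TDO2, the liver tryptophan dioxygenase, had intensities of 108, 134 and 125 with the SALL4 shRNA, against 158, 185 and 160 with the scrambled shRNA. It was the gene with the unadjusted p under 0.05 (log2 change -0.46 ± 0.19, SE; limma adjusted p = 0.24).

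The enzymes of the multi-tRNA synthetase complex, 7 of them measured, and the scaffold AIMP1 came next. In limma 0 of these 8 genes passed, beside 1.6% of all genes. Of the 8, 6 had a negative and 2 a positive log2 change, and the median was -0.05. AIMP1, the scaffold that binds the arginyl and glutaminyl enzymes, had intensities of 241, 187 and 187 in the SALL4 shRNA cultures, against 308, 357 and 303 in the scrambled cultures. Every SALL4 shRNA array was below every scrambled array, at a log2 change of -0.66 ± 0.19 (SE, n = 3 each) with a 95% interval of -1.08 to -0.25. With a limma adjusted p of 0.1 it was the member nearest to the threshold after WARS1.

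EPRS1, a single protein that charges both glutamate and proline tRNAs, had intensities of 1148, 1104 and 762, against 1570, 1260 and 1385. SALL4 shRNA replicate 3 was lowest, and the groups did not overlap. Its log2 change was -0.50 ± 0.21 (SE; limma adjusted p = 0.253), -0.31 without that array and -0.61 without SALL4 shRNA replicate 1. RARS1, the arginyl enzyme, ran the other way with 2268, 1773 and 1675 in SALL4 shRNA cultures, against 1387, 1324 and 1476 in scrambled cultures. The groups again did not overlap, and the log2 change was 0.44 ± 0.19 (limma adjusted p = 0.269). QARS1, the glutaminyl enzyme, had 355, 276 and 292 against 320, 383 and 437, which overlap. Its log2 change was -0.30 ± 0.20 (limma adjusted p = 0.469), -0.20 without scrambled replicate 3 and -0.42 without scrambled replicate 1.

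The remaining enzymes of the complex showed little difference. MARS1 (methionine), KARS1 (lysine, whose gene also supplies the mitochondrial enzyme), IARS1 (isoleucine) and LARS1 (leucine) had log2 changes between -0.07 and 0.10, and their groups overlapped. IARS1 was measured most evenly among the SALL4 shRNA cultures, with 1374, 1357 and 1380 against 1266, 1312 and 1579 in scrambled cultures. Its 95% interval of -0.40 to 0.39 leaves room for changes in either direction below that size. KARS1 had a single high array, SALL4 shRNA replicate 2 at 1227, beside 783 and 700 in the other SALL4 shRNA cultures and 819, 984 and 877 in the scrambled cultures.

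**Figure D2:**
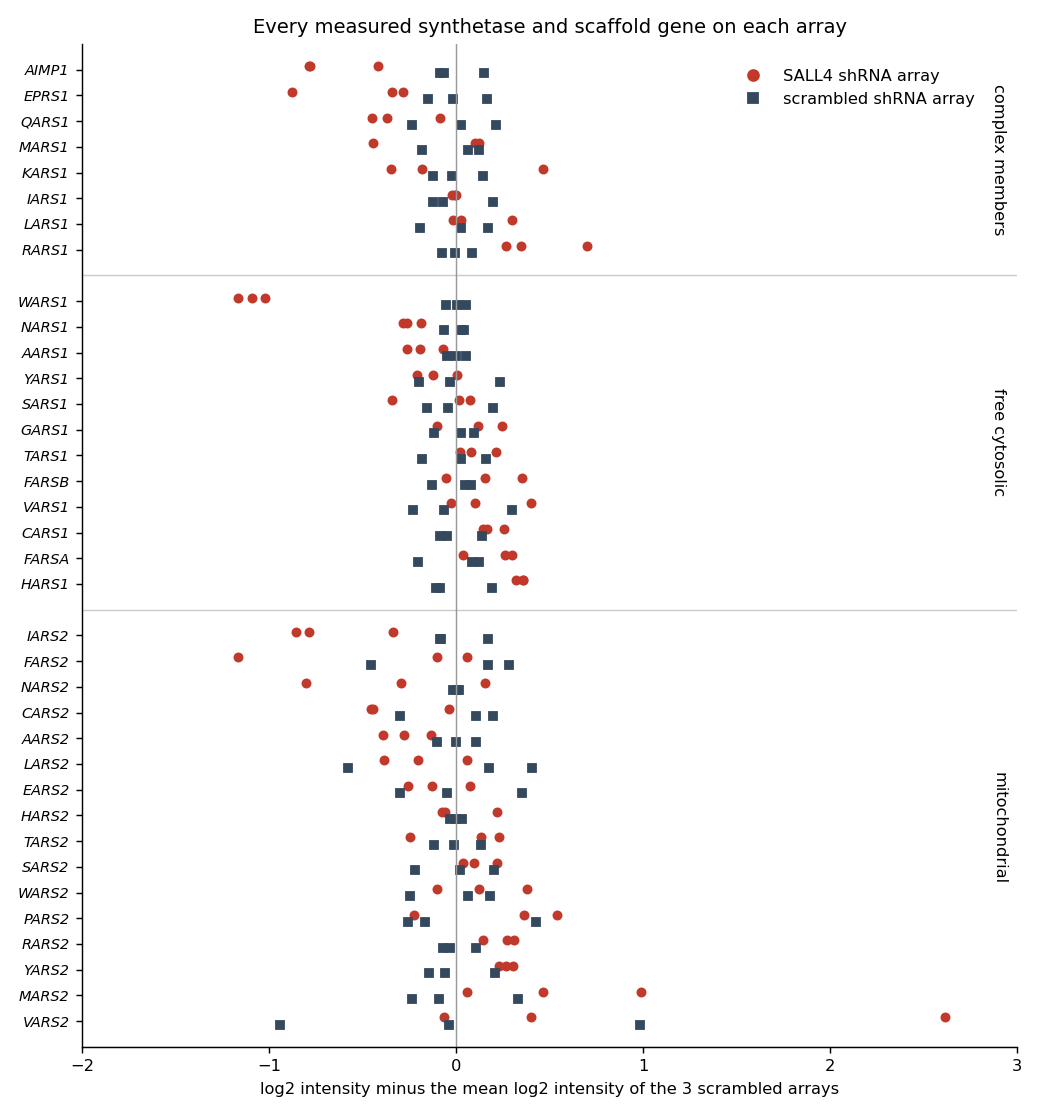
Log2 intensity of each of the 36 genes on each array, minus the mean of the 3 scrambled arrays for that gene, with SALL4 shRNA arrays as red circles and scrambled shRNA arrays as dark squares. WARS1 is the gene whose 3 SALL4 shRNA arrays all lie more than 1 below the scrambled mean, and VARS2 has 1 array far to the right.

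Outside the complex, the cytosolic enzymes other than WARS1 stayed close to their control levels. These 11 genes had log2 changes between -0.25 and 0.34, with a median of 0.11, and the 95% interval of each lay within a 2-fold change in either direction. HARS1, the histidyl enzyme, was highest with 473, 484 and 486 in the SALL4 shRNA cultures, against 357, 433 and 352 in the scrambled cultures. Its groups did not overlap, at a log2 change of 0.34 ± 0.18 (SE; limma adjusted p = 0.361). FARSA, the catalytic subunit of the phenylalanyl enzyme, had 346, 415 and 404 against 357, 366 and 293. Its log2 change was 0.20 ± 0.19 (limma adjusted p = 0.64), 0.10 without scrambled replicate 3 and 0.28 without SALL4 shRNA replicate 1. FARSB, its partner subunit, stood at 0.15 ± 0.19, so the 2 subunits of this enzyme had like values. NARS1, the asparaginyl enzyme, was the lowest of the 11, with 1812, 1716 and 1689 against 1969, 2094 and 2123 and a log2 change of -0.25 ± 0.17 (limma adjusted p = 0.513).

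AARS1 (-0.18) and CARS1 (0.19), for alanine and cysteine, also had groups that did not overlap, at log2 changes well below the smallest called one, 0.79 in size. YARS1, SARS1, GARS1, TARS1 and VARS1, for tyrosine, serine, glycine, threonine and valine, had log2 changes between -0.11 and 0.16 with overlapping groups. GARS1 supplies both cytosol and mitochondria and was at 0.09 ± 0.19 (SE). Over the 18 cytosolic synthetases without WARS1 the median log2 change was 0.04, with 9 negative and 9 positive, and all 18 intervals lay within 2-fold. That holds for 85.7% of all genes of the fit.

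Among the mitochondrial synthetases, 0 of 16 passed in limma (1.6% of all genes), with 1 at an unadjusted p under 0.05 (16.9% of all genes). IARS2, the isoleucyl enzyme, was that gene, with intensities of 369, 387 and 528 in the SALL4 shRNA cultures, against 630, 750 and 631 in the scrambled cultures. The groups did not overlap, and SALL4 shRNA replicate 3 lay nearest the scrambled arrays. The log2 change was -0.66 ± 0.20 (SE, n = 3 each) with a 95% interval of -1.10 to -0.22 and a limma adjusted p of 0.118.

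FARS2, the mitochondrial phenylalanyl enzyme, had 133, 56.8 and 119 against 155, 93.2 and 144. Each group had 1 low array, SALL4 shRNA replicate 2 and scrambled replicate 2, and the log2 change of -0.40 ± 0.31 (SE) did not pass (limma adjusted p = 0.55). NARS2, the asparaginyl enzyme, had 184, 94.7 and 135 against 167, 166 and 164. Its scrambled arrays were nearly level while the SALL4 shRNA arrays lay on both sides of them, at a log2 change of -0.31 ± 0.24 (limma adjusted p = 0.539). Without SALL4 shRNA replicate 2 the log2 change was -0.07 for NARS2 and -0.0231 for FARS2. Without SALL4 shRNA replicate 1 it was -0.55 for NARS2 and -0.64 for FARS2, so neither value is settled by these arrays. For FARS2 it was also -0.26 without scrambled replicate 1 and -0.63 without scrambled replicate 2.

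The highest log2 changes among the mitochondrial genes were those of VARS2, MARS2 and YARS2, and 0 of these 3 passed in limma. VARS2, the valyl enzyme, had 97.8, 454 and 70.9 in the SALL4 shRNA cultures, against 38.5, 72.3 and 146 in the scrambled cultures. Its log2 change of 0.98 ± 0.60 (SE; limma adjusted p = 0.44) rests on SALL4 shRNA replicate 2, and without that array it was 0.17. It was 1.51 without SALL4 shRNA replicate 3 and 0.51 without scrambled replicate 1. VARS2 is the 1 member with a second probe set, which had 115, 104 and 89.3 against 84, 165 and 72.3 and a log2 change of 0.03. The first probe set was also the brighter of the 2 only through that array: without it the mean log2 intensities were 6.28 and 6.65.

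MARS2, the methionyl enzyme, had 276, 144 and 192 against 130, 175 and 118, with overlapping groups. Its log2 change was 0.50 ± 0.25 (SE; limma adjusted p = 0.338). It was 0.26 without SALL4 shRNA replicate 1 and 0.73 without SALL4 shRNA replicate 2. YARS2, the tyrosyl enzyme, had 227, 220 and 215 against 212, 176 and 166. Its groups did not overlap, by a narrow margin, and the log2 change was 0.27 ± 0.18 (limma adjusted p = 0.5). The other mitochondrial genes (CARS2, AARS2, LARS2, EARS2, HARS2, TARS2, SARS2, WARS2, PARS2 and RARS2) had log2 changes between -0.31 and 0.24.

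Cytosolic and mitochondrial enzymes both had median changes close to 0. The median log2 change was -0.01 over the 19 cytosolic synthetases (10 negative, 9 positive) and 0.03 over the 16 mitochondrial ones (7 negative, 9 positive), beside 0.02 over all 13711 genes. The mitochondrial genes were more widely spread, with quartiles of -0.28 and 0.23 against -0.14 and 0.16 for the cytosolic genes and -0.21 and 0.22 for all genes. The highest standard errors among the mitochondrial genes were 0.60 (VARS2) and 0.31 (FARS2), and the highest among the cytosolic ones was 0.23 (KARS1). Whether precision accounts for the wider spread was not tested. An interval within 2-fold was found for 12 of 16 mitochondrial and 18 of 19 cytosolic synthetases, the exception in the cytosol being WARS1. Without SALL4 shRNA replicate 2 the mitochondrial median was -0.04. The genes are not replicates of a compartment, and no test was made of these medians.

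The structural classes of the enzymes also had median changes close to 0. The 9 class I cytosolic enzymes (those with a Rossmann fold, WARS1 among them) had a median log2 change of -0.01, and the 9 class II enzymes, which use another fold, had 0.09. EPRS1 joins 1 domain of each class and was counted in neither.

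Taking the enzymes pairwise, 13 amino acids have 1 measured cytosolic and 1 measured mitochondrial gene. The 2 changes had the same sign in 7 pairs and opposite signs in 6. The difference between them, cytosolic minus mitochondrial on the log2 scale, was between 0.07 and 0.82 in size in the 12 pairs other than tryptophan, where it was -1.22. Isoleucine was the other pair whose within-array differences did not overlap between the groups. How often gene pairs separate in this way over all genes was not computed. Among single genes of the fit, 22.4% had groups that did not overlap. Log2 IARS1 minus log2 IARS2 lay between 1.39 and 1.90 in SALL4 shRNA cultures and between 0.81 and 1.32 in scrambled cultures. There the mitochondrial enzyme was lower and the cytosolic one level, the reverse of the tryptophan pair.

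**Figure D3:**
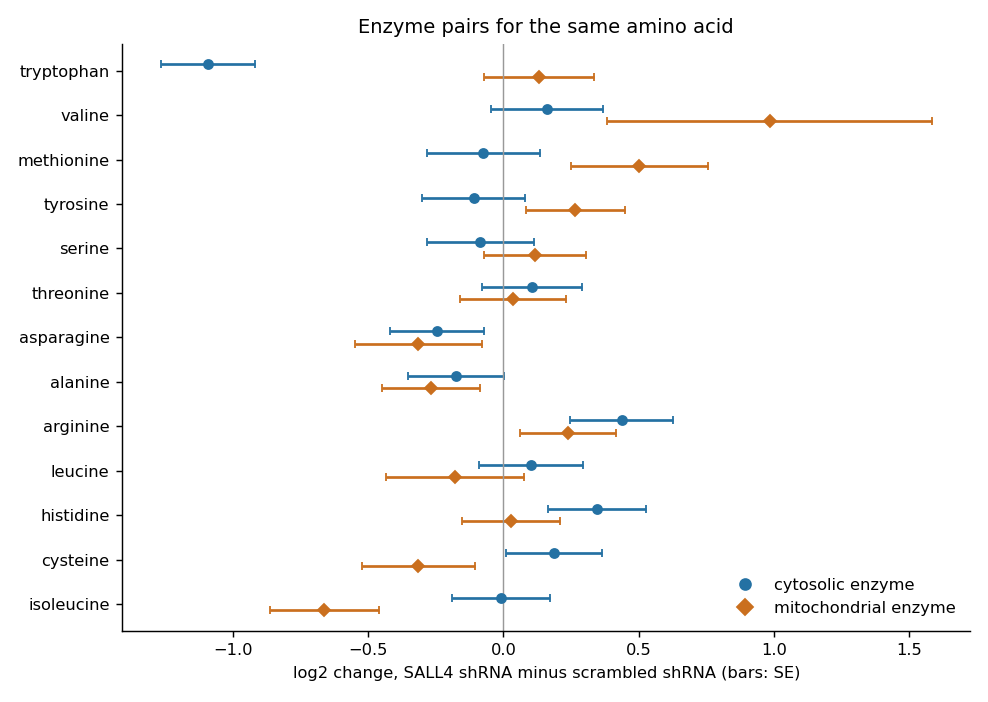
Log2 change (SALL4 shRNA minus scrambled shRNA) of the cytosolic enzyme (blue circles) and the mitochondrial enzyme (orange diamonds) for 13 amino acids, ordered by their difference, with bars of 1 SE. In the tryptophan pair at the top WARS1 is at -1.09 and WARS2 at 0.13, and in the isoleucine pair at the bottom IARS2 is at -0.66 and IARS1 at -0.01.

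Counted without the test, 12 of the 36 members (33.3%) had groups that did not overlap, 7 lower and 5 higher with the SALL4 shRNA, where 22.4% of all genes had such groups. A log2 change of at least 0.5 in size was seen in 6 members (16.7%) and in 14.6% of all genes. An unadjusted p under 0.05 was reached by 5 members (13.9%), WARS1, IARS2, AIMP1, EPRS1 and RARS1, and by 16.9% of all genes. By size of change and by unadjusted p the family thus sat near the background of the experiment.

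**Figure D4:**
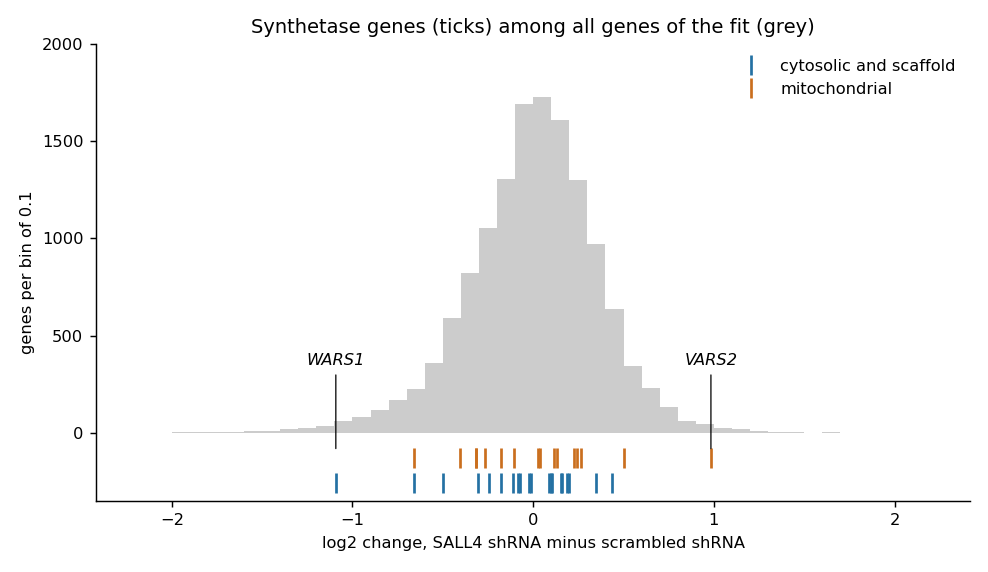
Number of genes (grey, vertical axis, per bin of 0.1) by log2 change, SALL4 shRNA minus scrambled shRNA, with the cytosolic and scaffold genes (blue ticks) and the mitochondrial genes (orange ticks) below. Most ticks lie under the middle of the grey distribution, WARS1 at -1.09 lies in its left tail, and VARS2 at 0.98 lies in its right tail.

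Position on the chromosome sets 2 further pairs apart. EPRS1 and IARS2, both with lower values and an unadjusted p under 0.05, lie on chromosome 1 with 1 annotated gene between them in RefSeq, BPNT1, a nucleotidase gene. BPNT1 had 126, 135 and 98.3 with the SALL4 shRNA, against 117, 117 and 132 with the scrambled shRNA, a log2 change of -0.04 ± 0.19 (SE; limma adjusted p = 0.948). The 95% interval of BPNT1 was -0.46 to 0.38, which leaves room for changes in either direction below that size. EPRS1 and IARS2 did not pass either (limma adjusted p = 0.253 and 0.118). Whether their shared position bears on their values was not tested. HARS1 and HARS2 are read in opposite directions from a shared start region on chromosome 5, their RefSeq windows overlapping by 184 bases. Their log2 changes were 0.34 ± 0.18 and 0.03 ± 0.18.

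Many cytosolic synthetase genes carry an amino acid response element, to which ATF4 and C/EBP factors bind, and 8 of the 31 members with a RefSeq window matched its core, TGATGNAA, on either strand. It was found for 4.46% of all genes (3.62% of all windows). The exact letters TGATGCAA were found for 6 of 31 members and 1.08% of all genes (0.866% of all windows). The 8 matches are shown in stretches of 30 bases on the gene's strand, 5′ to 3′ (GRCh38.p14), with the core in capitals, printed as its reverse complement where it lies on the other strand (all but NARS1 and YARS2).
NARS1, chr18:57621804-57621833: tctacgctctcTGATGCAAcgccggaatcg
AARS1, chr16:70289675-70289704: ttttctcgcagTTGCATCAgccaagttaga
MARS1, chr12:57488053-57488082: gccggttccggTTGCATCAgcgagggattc
IARS1, chr9:92293692-92293721: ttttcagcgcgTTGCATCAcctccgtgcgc
GARS1, chr7:30594834-30594863: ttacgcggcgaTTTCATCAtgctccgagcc
TARS1, chr5:33440956-33440985: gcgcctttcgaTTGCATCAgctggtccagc
CARS1, chr11:3057407-3057436: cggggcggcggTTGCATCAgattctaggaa
YARS2, chr12:32756076-32756105: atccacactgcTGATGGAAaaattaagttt

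These 8 genes had log2 changes between -0.25 and 0.27 with a median of 0.04, and the 23 members with a window but no match had a median of -0.02. WARS1 was among the 23. In TARS1, IARS1, CARS1, MARS1, GARS1 and NARS1 the match begins within 33 bases of an annotated start. Members with a letter match and members without one thus both had medians close to 0. Use of the element in these cells was not tested.

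Other genes of the amino acid response went in both directions. Of 44 measured, among them CARS1, 42 entered the fit, where 1 rose, 0 fell and 41 did not pass (1.6% of all genes passed). There were 22 negative and 20 positive log2 changes, with a median of -0.02. In limma 11 of the 42 had an unadjusted p under 0.05, 8 lower and 3 higher, beside 16.9% of all genes. DDIT4, an mTORC1 inhibitor that ATF4 and other stress factors induce, rose with 149, 109 and 138 in the SALL4 shRNA cultures, against 76.8, 62.5 and 35.9 in the scrambled cultures. The log2 change of DDIT4 was 1.23 ± 0.27 (SE, n = 3 each; limma adjusted p = 0.0446). The groups stood well apart, though DDIT4 passed in 0 of the 6 fits that left out a single array.

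ATF4 had 779, 663 and 842 with the SALL4 shRNA, against 1103, 1122 and 1008 with the scrambled shRNA, a log2 change of -0.51 ± 0.18 (SE; limma adjusted p = 0.187). ASNS, asparagine synthetase and a standard target of ATF4, stood at -0.39 ± 0.18 (adjusted p = 0.314). ATF4 is controlled mainly by translation of its mRNA, which an array does not read. SLC7A1, a transporter of cationic amino acids (-0.80 ± 0.20), EIF2AK3, the kinase PERK of the endoplasmic reticulum (0.73 ± 0.23), and PPP1R15A, a phosphatase subunit that reverses its action (0.67 ± 0.19), did not pass.

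Genes that make, process and export tRNA had negative changes more often than positive ones. Of 63 in the fit, 2 fell, 0 rose and 61 did not pass, where 1.06% of all genes fell and 0.547% rose. In limma 11 of the 63 had an unadjusted p under 0.05, 10 lower and 1 higher, beside 16.9% of all genes. There were 42 negative and 21 positive log2 changes, with a median of -0.17. Over all genes of the fit, 48% of the changes were negative. ADAT1, which deaminates an adenosine beside the anticodon of alanine tRNA, fell to 124, 84.9 and 100.1 with the SALL4 shRNA, against 193, 224 and 209 with the scrambled shRNA. Its log2 change was -1.03 ± 0.20 (SE, n = 3 each; limma adjusted p = 0.0291). TYW3, which acts in making wybutosine, the modified base of phenylalanine tRNA, fell to 679, 615 and 666 against 1135, 1206 and 1094. Its log2 change was -0.81 ± 0.18 (limma adjusted p = 0.0445), and in both genes the groups did not overlap. ADAT1 passed in 1 of the 6 fits that left out a single array and TYW3 in 0. POP5, a subunit of RNase P (-0.97 ± 0.24), and TRMT10A, a tRNA methyltransferase (-0.89 ± 0.21), did not pass. POLR3G, the gene that was higher at an unadjusted p under 0.05 in limma (log2 change 0.74), did not pass either.

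Of 9 further genes of aminoacylation and its quality control, 0 passed in limma and 2 had an unadjusted p under 0.05, the D-aminoacyl-tRNA deacylases DTD2 (-0.49 ± 0.18, SE) and DTD1 (0.45 ± 0.19). Their signs were opposite. Of 89 genes of mitochondrial translation 0 passed, beside 1.6% of all genes. There were 57 negative and 32 positive log2 changes, with a median of -0.12. Over all genes of the fit 48% of the changes were negative. An unadjusted p under 0.05 in limma was reached by 19 of the 89 and by 16.9% of all genes. MTRF1, a mitochondrial release factor (-1.10 ± 0.30), and the mitochondrial ribosomal protein genes MRPL24 (-1.08 ± 0.26) and MRPL37 (-0.86 ± 0.21) were the lowest of the 89.

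**Figure D5:**
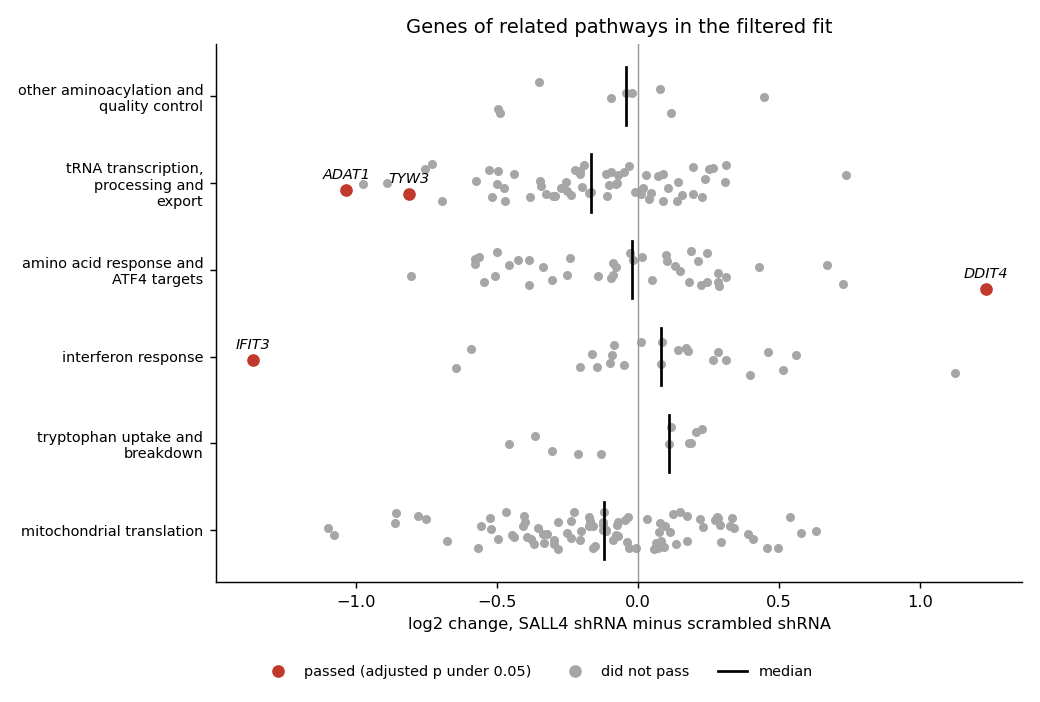
Log2 change (SALL4 shRNA minus scrambled shRNA, horizontal axis) of each gene of 6 related lists in the filtered fit, with genes that passed in red, the others in grey, and a black line at the median of each list. ADAT1, TYW3, DDIT4 and IFIT3 passed, and the medians lie between -0.17 and 0.11. IFIT3 entered the fit through the scrambled group alone.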

How the data were processed

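Total RNA of 6 SNU-398 cultures was hybridized to Affymetrix arrays. The authors deposited 1 intensity per probe set and array on a linear scale. RMA is named in the submitters' processing notes, with no version and no account of what followed it. Values never fall below 10, so a gene at 10 has only an upper bound. Log2 of each intensity was taken here. The platform annotation names 19158 of 32319 probe sets with 1 symbol, 1388 with several, and leaves 11773 unlisted. Symbols were updated through the Entrez identifier (19128 matched) to RefSeq for GRCh38.p14. The brightest probe set was kept for each of 18404 genes.

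SALL4 shRNA minus scrambled shRNA differences came from lmFit and eBayes of limma 3.58.1, run in R 4.3.3 (two-sided, Benjamini-Hochberg over 13711 genes, threshold 0.05) and tested on simulated data. Genes averaging below log2 5 (an intensity of 32) in both groups were left out. The number of arrays limits the precision: 3 against 3 cannot give an exact permutation p under 0.1, and p-values measure the spread between these cultures only.

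The members, gene lists, motifs and this filter were chosen with earlier results of these data known. Per-array values are given for WARS1, WARS2, AIMP1, members that passed or had an unadjusted p under 0.05, and the 3 highest and 3 lowest cytosolic and mitochondrial members. Up to 4 genes a list were named, by the test and then by size. NARS1, IARS1, KARS1, ATF4, ASNS, BPNT1, POLR3G, TAP1, IFI35 and the single values given for other members were added after their values were seen. Alternatives covered the filter, eBayes settings, normalization, centring, probe sets, left-out arrays and a replicate block. Same-numbered arrays had deviations from their group means that correlated at 0.003, -0.083 and -0.039, so the numbers were not taken as pairs. Some genes of the lists are not on the array under a single symbol and are not analysed here.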

Additional observations from a re-analysis of the deposited data

How the results depend on the processing

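WARS1 was lower, and no member passed as higher, in all 15 alternatives, and WARS1 passed in 9 of them. Its log2 change was -1.09 with an adjusted p of 0.0805 with no filter on dim genes, -1.09 (0.0535) with all probe sets in the fit, -1.09 (0.0558) with the replicate block, and -1.07 (0.0878) without scrambled replicate 3 and SALL4 shRNA replicate 2 together, so 0 members passed in those 4, with 9, 5, 4 and 5 at an unadjusted p under 0.05. Leaving out 1 array in turn gave WARS1 values from -1.13 to -1.06 and 0 to 1 members passed. SALL4 was at -1.30 with no filter and with all probe sets (adjusted p 0.0946 and 0.0535) and at -1.20 (0.0724) without those 2 arrays. Leaving out 1 array in turn gave a mitochondrial median from -0.0405 (without SALL4 shRNA replicate 2) to 0.0504 (without scrambled replicate 2), beside 0.0531 with median centring and 0.0523 with quantile normalization. FARS2 reversed to 0.0629 without the 2 arrays together. The count over the 6 pathway lists was 4, against 0 with no filter, 0 with all probe sets, 1 with the replicate block, 13 with trend and robust settings, 0 without the 2 arrays and 1 to 2 without any 1 array. Its alternatives were chosen after seeing the data. Over all genes limma called 220, against 0 with no filter (2864 at an unadjusted p under 0.05), 10 with all probe sets, 41 with the replicate block, 500 with trend and robust settings, 15 without the 2 arrays and 39 to 103 without any 1 array. Fewer arrays or more genes at the lowest value change the test itself, and other causes were not tested. The cytosolic median stayed between -0.04 and 0.04 and changed sign under several settings. Quantile normalization and median centring left WARS1 as the member that passed.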
